A study of Homo sapiens with 6 samples.

Results

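The 9 genes described here encode the MHC class I antigen presentation machinery: the heavy chains HLA-B, HLA-C and HLA-E, the light chain B2M, the peptide transporter subunits TAP1 and TAP2, the loading chaperone TAPBP, the trimming peptidase ERAP1 and the transcriptional activator NLRC5. They were chosen by their function, by gene symbol, with earlier results of these data known. All 9 were found among the 35554 genes of the count table and passed the filter on low counts. Polyadenylated RNA was sequenced from LNCaP, a human prostate carcinoma cell line that depends on androgen signalling, and from LNCaP-enzaR, a derivative selected by continuous culture in the antiandrogen enzalutamide, which blocks the androgen receptor, and then kept on a lower dose. Each group held 3 libraries, from flasks plated in triplicate per the labels. LNCaP-enzaR is a single selected line, so its 3 libraries are cultures of that line and not independent selections, and p-values measure the spread between these cultures. The parental cells are the line before that selection. The sources used here do not say whether enzalutamide was in the medium of LNCaP-enzaR at harvest, so a lasting difference and an effect of the drug cannot be told apart.

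MHC class I molecules show fragments of a cell's own proteins to cytotoxic T cells. The proteasome cuts proteins into peptides, TAP1 and TAP2 carry the peptides into the endoplasmic reticulum, ERAP1 trims them, and TAPBP (tapasin) holds the empty heavy chain with its B2M light chain at the transporter until a peptide binds. HLA-B and HLA-C are classical heavy chains, whereas HLA-E is a nonclassical one that is also recognised by inhibitory receptors of natural killer cells. NLRC5 binds no DNA by itself and acts on class I promoters through a complex of RFX, CREB/ATF and NF-Y proteins, and interferon-stimulated factors and NF-kappaB act on neighbouring elements.

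The promoter sequences of these genes show those elements, and they are printed here because several members share an element while their transcript levels differed between the lines by unlike amounts. RefSeq gave the 250 bases before the annotated transcription start (GRCh38.p14) for 7 of the 9 members and 9 starts. HLA-E and NLRC5 had no entry. An X2-Y pair was searched as TGACG followed, after 15 to 25 bases, by ATTGG, on either strand. It was present in HLA-B, HLA-C and B2M, and in 0.407% of all 35116 promoter windows. In the 3 segments the capitals mark, in order of the sequence, matches to the NF-kappaB consensus or an interferon regulatory factor (IRF) pair, then the X2 letters and the Y letters, and all are written 5′ to 3′ on the strand of the gene.
HLA-B, chr6:31357246-31357366, minus strand: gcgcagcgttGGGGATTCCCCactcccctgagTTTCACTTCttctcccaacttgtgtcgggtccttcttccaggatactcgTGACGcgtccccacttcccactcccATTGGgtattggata
HLA-C, chr6:31272158-31272274, minus strand: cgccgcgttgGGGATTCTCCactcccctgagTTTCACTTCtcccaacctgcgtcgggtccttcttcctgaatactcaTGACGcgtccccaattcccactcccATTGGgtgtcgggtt
B2M, chr15:44711363-44711482, plus strand: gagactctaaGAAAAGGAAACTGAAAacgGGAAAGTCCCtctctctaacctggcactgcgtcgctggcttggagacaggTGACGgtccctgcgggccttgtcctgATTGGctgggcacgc

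The X2 and Y letters were 20 bases apart in HLA-B and in HLA-C and 21 bases apart in B2M. A longer IRF pair, the interferon-stimulated response element (ISRE) searched as GAAANNGAAA on both strands, was found in B2M, TAP1, TAP2 and TAPBP and in 3.02% of all windows. The shorter pair GAANNGAAA, present in 6.56% of windows, was found in HLA-B, HLA-C and TAP2 and before the second start of ERAP1. The NF-kappaB consensus matched in HLA-B, HLA-C, B2M, TAP1, TAPBP and ERAP1 and in 5.21% of windows. In the transporter and chaperone genes the capitals below mark the ISRE, which in TAP1 and TAPBP is made of overlapping matches.
TAP1, chr6:32853816-32853845, minus strand: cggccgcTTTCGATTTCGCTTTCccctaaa
TAP2, chr6:32838778-32838807, minus strand: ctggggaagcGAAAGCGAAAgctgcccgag
TAPBP, chr6:33314079-33314105, minus strand: tttggagGAAAGTGAAAGTGAAAggag

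The RefSeq start of TAPBP lies inside the gene as counted (33299694 to 33314387), so the TAPBP bases printed here do too. A match describes these letters only. Binding of any factor was not measured in these libraries.

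**Figure D1:**
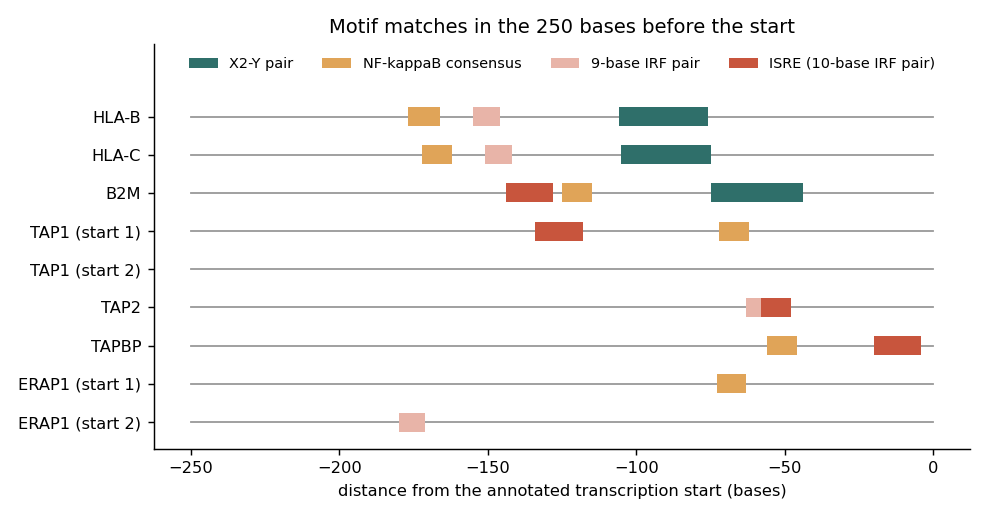
Motif matches in the 250 bases before each annotated start (x axis, bases from the start) for the 7 members with a RefSeq entry, with coloured blocks for the X2-Y pair, the NF-kappaB consensus and the longer and shorter IRF pairs. The X2-Y pair is seen in HLA-B, HLA-C and B2M, and the ISRE in B2M, TAP1, TAP2 and TAPBP.

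Sequencing depth was 77759122 to 98616465 assigned counts per library, and 3 counts corresponded to 0.0302 to 0.0382 counts per 1000000 assigned counts (CPM, scaled by the trimmed mean of M values, TMM). Transcripts of the mitochondrial genome took 6.72 to 7.06% of counts in parental libraries and 14.7 to 15.5% in LNCaP-enzaR libraries. LNCaP-enzaR replicate 1 stood further from its 2 companions than they did from each other, with a chi-square per degree of freedom of 39.8 and 31.4 against 7.42. The leukocyte marker PTPRC had 2 to 5 counts in every library and CD3E 0 to 1, and the 8 leukocyte markers in the table summed to 0.255 to 0.821 CPM in parental and 0.192 to 0.278 CPM in LNCaP-enzaR libraries. Of the 12 prostate luminal markers, 7 fell (58.3%), among them KLK3, which encodes prostate-specific antigen, and 1 rose (8.33%). Among all tested genes 19.5% were lower and 23.3% higher, by the rule given below. The marker that rose was KRT8, named after its values were seen. It was at 397 ± 19.6 CPM (SD, n = 3) in the parental line and 886 ± 122 CPM in LNCaP-enzaR.

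A gene was called when edgeR's quasi-likelihood test gave an adjusted p of at most 0.05 and the fold was at least 1.5. By this rule 4 of the 9 members rose in LNCaP-enzaR (NLRC5, HLA-E, HLA-B and TAPBP), none fell, and 5 were not called (HLA-C, TAP1, TAP2, ERAP1 and B2M). The calls of all 9 were the same with mitochondrial transcripts left out before scaling. The line differed widely from its parent: of 19711 genes tested, 42.7% were called, 23.3% higher and 19.5% lower. On the adjusted p alone 7 members passed, 6 higher and B2M lower, as did 66.3% of all tested genes, and at a fold of at least 2 there were 3 (NLRC5, HLA-E and HLA-B), beside 28.2%. The members' median log2 fold change was 0.57, beside 0.01 over all tested genes. In CPM, the 3 LNCaP-enzaR libraries lay above all 3 parental libraries for 6 members, as for 35.6% of all tested genes, and below them for B2M alone, as for 35% of all tested genes. TAP2 and ERAP1 overlapped.

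**Figure D2:**
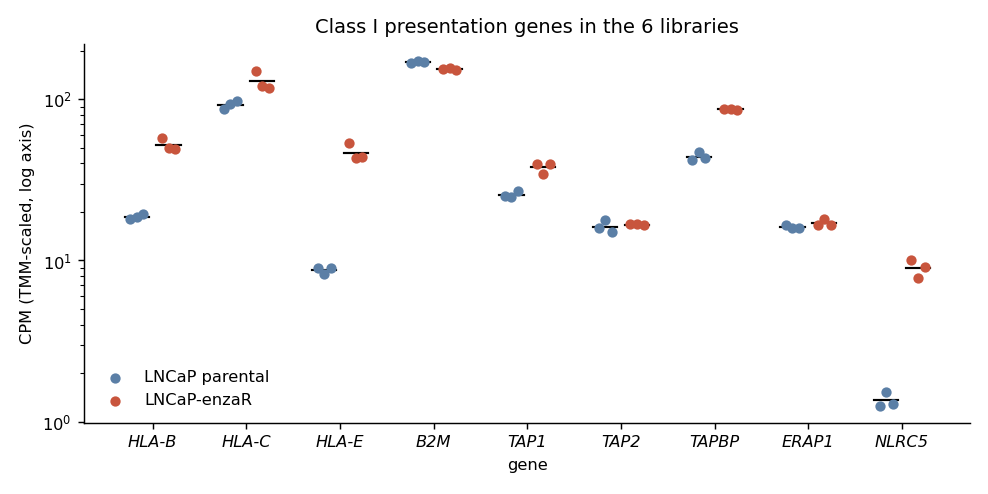
CPM on a log axis for the 9 members, with 1 point per library (3 parental, 3 LNCaP-enzaR) and a bar at each group mean. NLRC5, HLA-E, HLA-B and TAPBP are separated by the widest gaps, and TAP2 and ERAP1 overlap.

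NLRC5, the class I transactivator (chromosome 16, 56989485 to 57083531, GRCh38, plus strand), showed the largest difference among the members. It was counted 117, 138 and 101 times in the parental libraries and 868, 684 and 905 times in the LNCaP-enzaR libraries. In CPM this was 1.26, 1.52 and 1.29 against 10.1, 7.74 and 9.12. Every LNCaP-enzaR library was thus above every parental one by a wide margin. The log2 fold change was 2.72 (SE 0.136, a 6.61-fold rise) with an adjusted p of 3.28e-10 by edgeR's quasi-likelihood test, which placed NLRC5 at percentile 95.3 of the log2 fold changes of all tested genes. Per length it remained the lowest member in both lines, at 0.109 ± 0.0113 RPKM (CPM per kb of exon, SD, n = 3) in parental cells and 0.725 ± 0.094 RPKM in LNCaP-enzaR.

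The nonclassical heavy chain HLA-E (chromosome 6, 30489509 to 30494194, plus strand) was measured at 9.01, 8.28 and 9.03 CPM in parental libraries. In LNCaP-enzaR it was measured at 53.4, 43.0 and 43.6 CPM. Replicate 1 was the highest, and the lowest LNCaP-enzaR library was still far above the parental range. HLA-E rose 5.32-fold (log2 fold change 2.41, SE 0.092, edgeR adjusted p = 1.97e-11), the largest fold among the 3 heavy chains.

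The classical heavy chain HLA-B (chromosome 6, 31353872 to 31357188, minus strand) was at 18.1, 18.6 and 19.5 CPM in parental cells and at 57.7, 49.8 and 49.1 CPM in LNCaP-enzaR, with no overlap. Its rise was 2.78-fold (log2 fold change 1.48, SE 0.076, edgeR adjusted p = 4.54e-10). The opposite-strand pseudogene XXbac-BPG248L24.12 covers 17.9% of the HLA-B exon bases and held only 0 to 5 counts per library.

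HLA-C (chromosome 6, 31268749 to 31272130, minus strand), the other classical heavy chain, was at 86.9, 93.2 and 97.2 CPM in parental cells and at 149, 121 and 117 CPM in LNCaP-enzaR. The groups did not overlap and the adjusted p was 1.43e-04 (edgeR), but the 1.40-fold difference (log2 0.48, SE 0.0833) lay under the fold limit. LNCaP-enzaR replicate 1 carried part of this value: without it the log2 difference was 0.37. HLA-B and HLA-C have near-identical stretches and polymorphic alleles, and how reads that fit several HLA genes were counted was not given in the sources used here. The 8 class I pseudogenes in the table summed to 0.854 to 1.21 CPM in parental and 1.22 to 1.81 CPM in LNCaP-enzaR libraries.

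B2M, the light chain shared by all class I molecules (chromosome 15, 44711487 to 44718851, plus strand), did not follow the heavy chains. It was at 167, 172 and 170 CPM in parental libraries and at 154, 155 and 152 CPM in LNCaP-enzaR. These tight groups did not overlap, and the log2 difference was −0.14 (SE 0.05, edgeR adjusted p = 0.0201), a 1.11-fold higher level in the parental cells that is well short of the fold limit. The adjusted p was above 0.05 in 6 of 15 other settings, up to 0.469 with upper-quartile scaling. The X2-Y pair printed above was found in B2M, HLA-B and HLA-C, and their log2 differences were −0.14, 1.48 and 0.48. Whether this element bears on these differences was not tested.

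The levels per length put these differences side by side. In parental cells B2M had the highest level, at 55.9 ± 0.698 RPKM (SD, n = 3), followed by HLA-C at 36.9 ± 2.06 RPKM. TAPBP (6.6 ± 0.411 RPKM), HLA-B (6.19 ± 0.24 RPKM) and TAP1 (5.40 ± 0.228 RPKM) came next, then HLA-E at 3.00 ± 0.146 RPKM. ERAP1 (2.04 ± 0.0566 RPKM) and TAP2 (1.56 ± 0.132 RPKM) were lower, and NLRC5 was last. TAPBP and HLA-B, which are neighbours in this order, lay within 2 SD of each other.

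In LNCaP-enzaR, HLA-C (51.5 ± 7.05 RPKM) and B2M (50.5 ± 0.509 RPKM) did not differ beyond their spread. HLA-B (17.2 ± 1.58 RPKM) and HLA-E (16.0 ± 1.99 RPKM) had overlapping ranges, with HLA-B above HLA-E within each of the 3 libraries. TAPBP followed at 13 ± 0.177 RPKM and TAP1 at 8 ± 0.669 RPKM, and ERAP1 (2.16 ± 0.112 RPKM) and TAP2 (1.61 ± 0.0146 RPKM) kept their places above NLRC5. These levels rest on exon lengths of GENCODE v44, trimmed to the gene bounds of the count table.

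The makeup of the heavy chain pool was set out per length. The sum of HLA-B, HLA-C and HLA-E was 43.7, 46.2 and 48.3 RPKM in parental libraries and 96.9, 79.4 and 77.8 RPKM in LNCaP-enzaR. Set over B2M, the sum was 0.794, 0.817 and 0.862 in parental and 1.91, 1.56 and 1.56 in LNCaP-enzaR libraries, so these 3 heavy chains were below the light chain in every parental library and above it in every LNCaP-enzaR library. HLA-C made up 80.0 ± 0.665% of the sum in the parental line (SD, n = 3) and 60.7 ± 0.749% in the resistant one. The share of HLA-E went from 6.53 ± 0.47% to 18.9 ± 0.326%, and that of HLA-B from 13.4 ± 0.196% to 20.4 ± 0.645%. The ratio of HLA-E to HLA-B, which is free of the scaling between libraries, was 0.516, 0.461 and 0.479 in parental and 0.959, 0.894 and 0.921 in LNCaP-enzaR libraries. These ratios and shares are descriptions that depend on the exon lengths used. They were not tested, and other class I heavy chains are not in the sum.

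**Figure D3:**
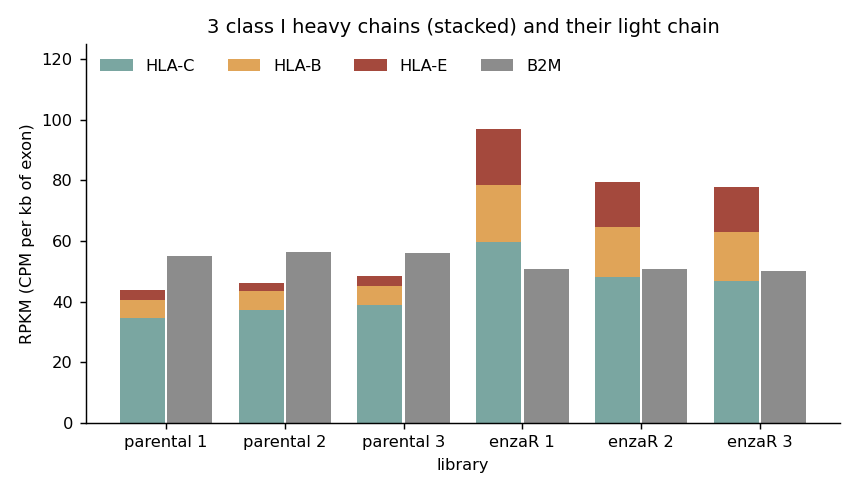
RPKM per library of HLA-C, HLA-B and HLA-E, stacked, beside B2M (grey). The stacked sum is 43.7 to 48.3 RPKM in the parental libraries, below B2M, and 77.8 to 96.9 RPKM in the LNCaP-enzaR libraries, above it.

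Of the loading machinery, TAPBP (chromosome 6, 33299694 to 33314387, minus strand) was the called member. It was at 41.7, 46.9 and 43.0 CPM in parental libraries and at 87.4, 86.7 and 85.1 CPM in LNCaP-enzaR, a 1.97-fold rise (log2 fold change 0.98, SE 0.0616, edgeR adjusted p = 4.06e-09). The LNCaP-enzaR libraries were close together here, replicate 1 included.

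The subunits of the peptide transporter, which work as a pair, did not move together. TAP1 (chromosome 6, 32845209 to 32853816, minus strand) was at 25, 24.9 and 26.8 CPM in parental libraries and at 39.6, 34.3 and 39.9 CPM in LNCaP-enzaR. Its groups did not overlap, and at 1.48-fold (log2 0.57, SE 0.0743, edgeR adjusted p = 9.9e-06) it stopped just short of the fold limit, which it passed under 5 of 15 other settings. TAP2 (chromosome 6, 32821833 to 32838770, minus strand) was at 15.8, 17.7 and 15 CPM in parental and at 16.8, 16.8 and 16.5 CPM in LNCaP-enzaR libraries, which lay inside the parental range. Its log2 difference was 0.05 (SE 0.0784, edgeR adjusted p = 0.598), and without parental replicate 3 it was −0.00334. In RPKM, the ratio of TAP1 to TAP2 was 3.47, 3.08 and 3.90 in parental and 5.14, 4.46 and 5.27 in LNCaP-enzaR libraries. The antisense gene PSMB8-AS1 covers 14.2% of the TAP1 exon bases and had 2 to 13 counts per library.

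ERAP1, which trims peptides in the endoplasmic reticulum (chromosome 5, 96760810 to 96808100, minus strand), was at 16.7, 16.0 and 15.9 CPM in parental and at 16.7, 18.2 and 16.6 CPM in LNCaP-enzaR libraries. The groups overlapped, with a log2 difference of 0.08 (SE 0.0733, edgeR adjusted p = 0.346). Its exons share 10.2% of their bases with CAST on the other strand, and whether counting used strand was not given in the sources used here. CAST, the calpain inhibitor calpastatin, had a log2 difference of −0.38 and was not called.

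**Figure D4:**
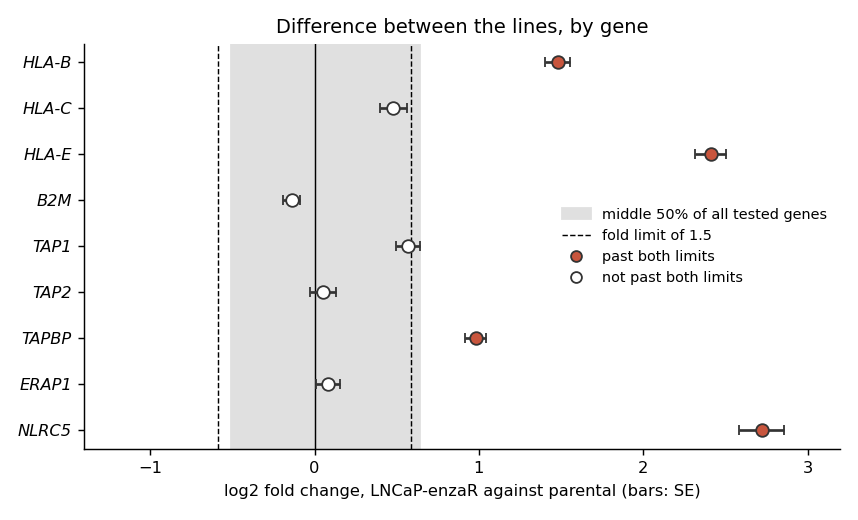
Log2 fold change of each member in LNCaP-enzaR against parental (x axis, bars are SE), with the fold limit of 1.5 as dashed lines and the middle 50% of all tested genes in grey. Filled points passed both limits: HLA-B, HLA-E, TAPBP and NLRC5.

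The DNA-bound partners of NLRC5 did not rise with it. Of the 8 genes of the class I enhanceosome (the RFX, CREB/ATF and NF-Y subunits), 4 fell and none rose, beside 19.5% and 23.3% of all tested genes, and their median log2 fold change was −0.56. CREB1, which binds the X2 element with ATF1, was at 85.6, 83.3 and 81.0 CPM in parental and at 30, 36.1 and 36.3 CPM in LNCaP-enzaR libraries (log2 fold change −1.29, edgeR adjusted p = 1.61e-09). NFYB, a subunit of the Y-box factor, had a log2 fold change of −1.21, RFXAP, a subunit of the X1 factor, of −1.04, and ATF1 of −0.63. The remaining NFYA, RFXANK, NFYC and RFX5 had log2 differences of −0.48, −0.34, −0.28 and −0.22, short of the fold limit. In all 8 genes the LNCaP-enzaR libraries lay below the parental libraries, as in 35% of all tested genes.

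Genes of interferon signalling upstream of class I gave a mixed picture. Of 15 tested, 4 rose (26.7%) and none fell, beside 23.3% higher and 19.5% lower among all tested genes. The median log2 difference was 0.04. JAK2, a kinase that associates with cytokine receptors, rose from 19.5 ± 0.692 to 55.3 ± 3.11 CPM (log2 fold change 1.5, edgeR adjusted p = 1.11e-10), and STAT2 from 20.4 ± 2.11 to 41.2 ± 1.22 CPM (1.01). IFNGR2, a chain of the interferon gamma receptor, rose by 0.93 on the log2 scale. The fourth was IRF1, named after its values were seen, a factor that binds ISRE-type elements. It rose from 2.55 ± 0.127 to 4.92 ± 0.60 CPM (log2 fold change 0.95, edgeR adjusted p = 1.49e-05). The phosphatase PTPN2 (log2 difference −0.52), STAT3 (−0.33) and IFNAR1 (0.04) were not called. JAK1 and IRF9 were picked out after their values were seen. JAK1, the partner kinase of JAK2 at the interferon gamma receptor, was at 2.21 ± 0.151 CPM in parental cells and 2.69 ± 0.63 CPM in LNCaP-enzaR. IRF9, the DNA-binding partner of STAT2, was at 0.273 ± 0.097 and 0.183 ± 0.133 CPM.

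Among 8 NF-kappaB subunits and inhibitors, 2 rose (25%) and 1 fell (12.5%), beside 23.3% and 19.5% of all tested genes. RELB, a subunit of the noncanonical dimer, was at 1.07, 1.14 and 0.866 CPM in parental and 6.25, 5.87 and 5.81 CPM in LNCaP-enzaR libraries (log2 fold change 2.53, edgeR adjusted p = 9.27e-10). Its partner NFKB2 rose from 33.3 ± 1.14 to 82.1 ± 3.62 CPM (1.30), whereas the inhibitor NFKBIA fell from 98.5 ± 3.42 to 35.3 ± 1.51 CPM (−1.48). The canonical subunits NFKB1 (0.37), REL (0.46) and RELA (−0.22) were not called, nor were NFKBIB (−0.20) and NFKBIE (−0.13).

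The catalytic proteasome subunits that interferon induces had low counts in both lines. Exons of other genes cover 39.4% of PSMB10, 17.3% of PSMB8 and 5.21% of PSMB9 exon bases, so these levels are less certain. Of the 6 genes in the inducible proteasome list, 2 rose (33.3%) and none fell, beside 23.3% higher and 19.5% lower among all tested genes. PSMB10 went from 1.87, 2.33 and 1.53 CPM to 4.93, 4.08 and 3.98 CPM (log2 fold change 1.17, edgeR adjusted p = 1.72e-05), and PSME1, a subunit of the activator cap, from 85.0 ± 5.95 to 166 ± 14.8 CPM (0.97). The catalytic subunits PSMB8 and PSMB9 stayed under 1 CPM, with 4 to 29 and 27 to 65 counts per library, and were not called (log2 differences 0.58 and 0.51), nor were PSME2 (0.17) and POMP (−0.51). As a ratio of counts within each library, PSMB10 to its constitutive counterpart PSMB7 was on the log2 scale −6.33 ± 0.307 in parental and −5.10 ± 0.106 in LNCaP-enzaR (difference 1.23, exact two-sided permutation test p = 0.1, adjusted p = 0.15 over 3 pairs). PSMB9 to PSMB6 differed by 0.90 (exact permutation p = 0.1, adjusted 0.15) and PSMB8 to PSMB5 by 1.09 (exact permutation p = 0.2, adjusted 0.2). With 3 libraries against 3, the smallest p this test can give is 0.1. Of the 15 constitutive core and cap genes, PSMA6, named after its values were seen, fell (−0.59) and the other 14 were not called, with a median log2 difference of −0.25. PSMA3 (−0.49), PSMA4 (−0.46), PSMA1 (−0.58) and PSMA5 (−0.42) had the smallest p-values among those not called, and the abundant PSME3 (−0.18) and PSMA7 (−0.25) differed less.

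The folding and loading partners that receive the heavy chain mostly fell, unlike TAPBP. Of 14 tested, 8 fell and 3 rose, with a median log2 fold change of −0.68, beside 19.5% lower and 23.3% higher among all genes. CALR (calreticulin), which joins tapasin in the peptide-loading complex, was at 1900, 1940 and 1870 CPM in parental and at 1190, 1150 and 1150 CPM in LNCaP-enzaR libraries (log2 fold change −0.71, edgeR adjusted p = 9.39e-09). UGGT1, the glycoprotein folding sensor, fell by 1.05, HSPA5, the general chaperone BiP, by 1.06, and the disulphide isomerase PDIA4 by 2.06 on the log2 scale. The other genes named from this list were added after their values were seen. PDIA3, the tapasin-bound isomerase, fell (−0.64), as did ERAP2, the relative of ERAP1 (−1.62), and CANX (calnexin) was not called (−0.47). The 3 that rose were BCAP31 (0.79), an export receptor, MAN1A1 (0.73), a mannosidase, and TAPBPL (0.65), the tapasin-related peptide editor. Most of these proteins serve all secreted and membrane proteins and not class I alone.

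**Figure D5:**
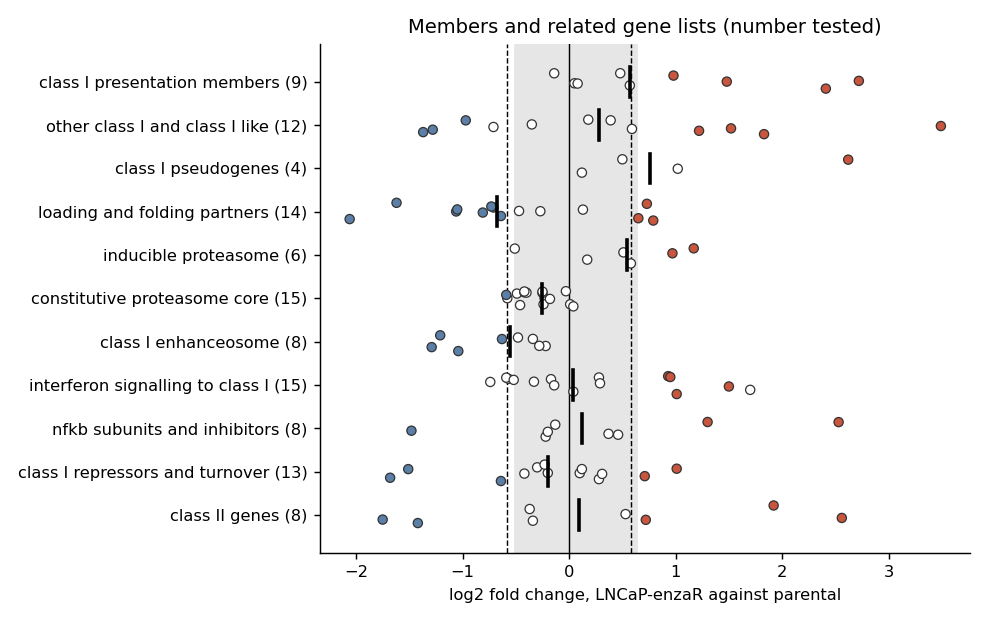
Log2 fold change in LNCaP-enzaR against parental for the members and 10 related lists, with 1 point per tested gene, red for higher and blue for lower calls, white for not called, and a black bar at each list's median. The enhanceosome and the loading and folding partners sit left of 0 by their medians (−0.56 and −0.68), and the 9 members sit right of it (0.57).

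Genes known to restrain class I expression or to remove class I molecules fell and rose. Of 13 tested, 3 fell (23.1%) and 2 rose (15.4%), beside 19.5% and 23.3% of all tested genes. The median log2 difference was −0.20. EZH2, the methyltransferase of the PRC2 silencing complex, was at 60.7, 59.9 and 57.3 CPM in parental and at 17.3, 19.0 and 19.0 CPM in LNCaP-enzaR libraries (log2 fold change −1.68, edgeR adjusted p = 2.8e-11). UBE2J1, a ubiquitin-conjugating enzyme of the endoplasmic reticulum, fell by 1.51 on the log2 scale, and SUZ12, another PRC2 subunit, named after its values were seen, by 0.64. NBR1, the autophagy receptor, rose by 1.01 and SUSD6, which takes part in removing class I from the surface, by 0.71. The abundant SND1 was not called (−0.20).

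Other class I and class I-like genes did not move as a block. Of 12 tested, 4 rose (33.3%) and 3 fell (25%), beside 23.3% and 19.5% of all tested genes. The median log2 difference was 0.29. HLA-F, a nonclassical heavy chain, went from 1.16, 0.594 and 0.764 CPM to 2.98, 3.37 and 2.61 CPM (log2 fold change 1.83, edgeR adjusted p = 4.58e-06). MR1, which presents vitamin metabolites, rose by 1.22 and ULBP2, a ligand of the activating receptor NKG2D, by 1.52. AZGP1, a secreted class I-fold protein, fell by 1.28, while ULBP1 was not called (−0.35).

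The 6 members on chromosome 6 lie in the MHC region, taken here as the stretch from GABBR1 to ZBTB9. Of the 132 other tested genes of that stretch, 24 were higher (18.2%) and 20 lower (15.2%), beside 23.3% and 19.5% of all tested genes, and their median log2 difference was 0.05. For bulk RNA, more cells with a transcript and more transcript per cell cannot be told apart.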

How the data were processed

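Messenger RNA libraries (TruSeq, paired-end, NovaSeq) were made from 3 parental LNCaP and 3 LNCaP-enzaR cultures. Per the study's methods and the labels, the authors trimmed reads with Cutadapt, aligned them to GRCh38.p13 with STAR and assigned them to GENCODE genes with featureCounts. The values, as deposited, are raw counts for each gene. Strand setting, the treatment of multi-mapping reads and the counting of reads or fragments were not given in the sources used here, so values for HLA genes and for genes overlapping others are less certain. No per-sample column was left out. The members, gene lists and tests were chosen with earlier results of these data known.

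Counts were tested with edgeR 4.0.16 (R 4.3.3) across 19711 genes: filterByExpr, TMM scaling, robust quasi-likelihood fit, no covariates, Benjamini-Hochberg adjustment over all tested genes. Calls needed both an adjusted p no higher than 0.05 and a 1.5-fold difference or more. RPKM is TMM-scaled CPM per kb of exon union (GENCODE v44), trimmed to the deposited gene bounds, 99.8% of genes being found there. Promoters came from RefSeq. The rule for named genes was all 9 members, every gene of a list with at most 8 tested genes, otherwise its 4 smallest p-values and any gene not called among its 2 most abundant; for likeness, the 3 genes of at least 5 CPM with the highest correlation with NLRC5 and with B2M; and the nearest tested neighbours of B2M, ERAP1 and NLRC5. Genes named beyond it are marked as such in the text. Alternatives were DESeq2 1.42.0, RLE, upper-quartile and library-total scaling, other filters, a replicate block, other fold limits and leaving out each library. For levels per length the alternative was the longest transcript. Scripts were tested on simulated data. Intervals from depth cover counting error only. A few genes are not reported here and were left out of the gene lists.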

Additional observations from a re-analysis of the deposited data

How the results depend on the processing

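HLA-B, HLA-C, HLA-E, TAPBP, NLRC5, B2M and ERAP1 kept their direction and their call by both limits together in all 15 alternatives. On the adjusted p alone, B2M (0.00202 to 0.469) was above 0.05 in 6 of the 15 and ERAP1 (0.0397 to 0.693) below it with upper-quartile scaling. Upper-quartile scaling moved the median of all genes by 0.101 on the log2 scale and gave the highest value of every member, with B2M at −0.04. TAP1 passed the fold limit at 0.67 with upper-quartile scaling and at 0.59 with at least 10 counts per library or with protein-coding genes only. Leaving out 1 library gave 0.53 to 0.64 for TAP1, which passed without parental replicate 3 (0.60) or LNCaP-enzaR replicate 2 (0.64), and −0.00334 to 0.12 for TAP2, below 0 without parental replicate 3. The cause was not tested. With replicate number as a block, the same count of 4 members rose, NLRC5 was at 2.72 and B2M at −0.14 (edgeR adjusted p = 0.0829, beside 0.0201 without it), and 8212 genes were called in all. Same-numbered libraries did not deviate together (correlations −0.0652, −0.00041 and −0.0507). Whether they share more than a number, such as a day of preparation, is not given in the sample titles. 

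With no minimum fold, 13074 genes were called in all, 1 member was lower (B2M), 78 in the MHC region (44 before), 4 in the inducible and 11 in the constitutive proteasome lists, 8 in the enhanceosome, 8 in interferon signalling, 7 in NF-kappaB, 11 among repressors and 1 among endothelial markers. With a fold of at least 2, these were 5561 in all, 28 in the MHC region, 4 loading partners, 1 inducible and 0 constitutive proteasome genes, 2 in interferon signalling, 3 repressors and 4 luminal markers. The constitutive proteasome count of 1 became 0 with RLE or upper-quartile scaling, at least 10 counts, protein-coding genes only, without mitochondrial transcripts and with DESeq2, and 2 with library totals, and it ran from 1 to 2 when 1 library was left out. The pseudogene count of 1 became 2 with no filter or DESeq2 and 0 with at least 10 counts or protein-coding genes only, and ran from 1 to 2 without 1 library; endothelial markers were 2 with no filter or DESeq2, and leukocyte markers ran from 0 to 1 without 1 library. As shares of counts and not RPKM, HLA-B was 15.6% in parental and 23.0% in LNCaP-enzaR, HLA-C 77% and 56.6%, and HLA-E 7.32% and 20.5%. Depth limits PSMB8 and PSMB9, at 4 to 65 counts per library.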

Other observations

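MHC class II genes, whose master activator CIITA is a relative of NLRC5, split. Of 8 tested, 3 rose (37.5%) and 2 fell (25%), beside 23.3% and 19.5% of all tested genes. The peptide editors HLA-DMA and HLA-DMB fell by 1.75 and 1.42 on the log2 scale, HLA-DMA from 12.4, 10.7 and 12.1 CPM in parental to 3.71, 2.67 and 4.07 CPM in LNCaP-enzaR libraries (edgeR adjusted p = 3.73e-08). HLA-DQB1 rose from 11.1 ± 0.715 to 18.1 ± 0.729 CPM (SD, n = 3 libraries; log2 fold change 0.72). HLA-DRA (2.56) and HLA-DPB1 (1.92) rose from levels under 0.3 CPM and stayed under 1 CPM on average. CIITA was at 1.72 ± 0.304 and 1.33 ± 0.147 CPM and was not called (−0.37), nor were HLA-DPA1 (−0.34) and HLA-DRB1 (0.53).

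The nearest tested neighbours of the members outside the MHC region did not share one pattern. Beside NLRC5, HERPUD1 had a log2 difference of −0.52 and CPNE2 of 0.05, and neither was called. Beside B2M, PATL2 rose by 1.95 from 0.0965 to 0.383 CPM, and TRIM69 was not called (−0.17). Beyond ERAP1, the noncoding CTD-2260A17.2 fell by 1.94 on the log2 scale.

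Over the 6 libraries, the genes whose log2(CPM + 1) followed NLRC5 most closely were PADI2, NFS1 and HADH (Pearson r of 0.9996, 0.9994 and 0.9994), and for B2M they were NUP62CL, TCIRG1 and DLG3 (0.9984, 0.9978 and 0.9974). The libraries fall into 2 groups, and values this high were common: 825 of 10768 genes exceeded 0.99 for NLRC5 and 129 for B2M.

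Of the markers of other cell types, the 6 fibroblast genes in the table summed to 14.7 to 17.9 CPM in parental and 8.21 to 8.95 CPM in LNCaP-enzaR libraries, led by COL1A1, which fell by 1.64 on the log2 scale, while LUM (1.78) and PDGFRB (1.43) rose and COL3A1 (−0.38) was not called. The 6 endothelial genes summed to 5.76 to 6.12 and 4.06 to 4.40 CPM, nearly all of it VWF (−0.47, not called). DCN, a defining fibroblast gene, had 0 to 1 counts in parental and 2 to 20 in LNCaP-enzaR libraries, and PECAM1, a defining endothelial gene, 0 to 4 counts in any library. Of the other class I pseudogenes tested, HLA-V rose (2.62) from 0.026 CPM, and HLA-J, HLA-L and HLA-H were not called. The leukocyte gene NKG7, the only one of its list to pass the filter, was not called (−1.33). In the luminal list SLC45A3, KLK3, KLK2 and HOXB13 fell by 4.73, 3.08, 2.00 and 0.84 on the log2 scale, and KRT8, named after its values were seen, rose by 1.16.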
